A study of Mus musculus with 8 samples.

Results

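The cytosolic ribosomal protein genes of the mouse were followed from Kit-positive cells through immature to mature neutrophils, and set against monocytes, in blood, bone marrow, spleen and tumor. Genes were taken by name: every gene whose symbol is Rpl or Rps followed by a number, with the usual suffix letters, together with Rplp0, Rplp1, Rplp2 and Rpsa, and without processed pseudogenes. The rule found 84 of 32285 genes, 52 for proteins of the large subunit (Rpl, Rplp) and 32 for the small subunit (Rps, Rpsa). One of them, Rpl10l, a testis paralog of Rpl10, had 0 unique molecular identifiers (UMIs) in any cell, and the other 83 entered every test.

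The cells came from female C57BL6/J mice that carried a tumor of MPOC cells, an oropharyngeal carcinoma model that the protocols spell MOPC. Myeloid cells and Kit-bearing progenitors were sorted from 4 tissues and profiled by droplet single-cell RNA sequencing with barcoded antibodies. A digestion, of 45 min at 37 °C, is recorded for tumor alone. Wild-type (WT) mice and a gene knockout line given only as Genotype_02 were mixed in each tissue and marked by hashtag antibodies. No source used here ties a hashtag to a mouse or to a genotype, so every group below holds both genotypes in unknown shares, and all mice bore tumors.

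A ribosome is built from ribosomal RNA and about as many kinds of protein as there are genes in this set, which cells make in matched amounts. Most of these messages begin with a run of pyrimidines after a leading C, the 5′ terminal oligopyrimidine (TOP) element, through which growth signals set their translation. Dividing progenitors invest heavily in ribosomes. Neutrophils stop dividing in the marrow, fill their granules, condense their nuclei and leave with little capacity to make new protein, whereas monocytes keep more of it.

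The sequences around the annotated start of a few members, from 20 bases before it and 10 bases from it on, show this element and how far it varies. They are shown for 3 members that fell most between Kit-positive cells and immature neutrophils (Rpl14, Rpl12, Rps2), for 3 that lost least relative to the other members between immature and mature cells (Rps9, Rps27, Rpl37), and for Rpl3l, a muscle paralog of Rpl3 that moved the other way. Capitals mark each run of a C followed by at least 4 bases that are each C or T. Sequences are RefSeq's, build GRCm38.p6, 5′ to 3′ on the strand of the gene.
Rpl14, chr9:120571497-120571526, plus strand: cggcagggcgggCCCTCTCTCTTCTCgctg
Rpl12, chr2:32961692-32961721, plus strand: gcgtgggcggagcaggatccgtCTTTTCgg
Rps2, chr17:24720043-24720072, plus strand: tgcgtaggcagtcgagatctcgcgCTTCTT
Rps9, chr7:3704021-3704050, plus strand: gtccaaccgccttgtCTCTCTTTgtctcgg
Rps27, chr3:90213639-90213668, minus strand: acaggatttccgCTTTCgCTCCTTTCCggc
Rpl37, chr15:5116593-5116622, plus strand: gaagtagtttcctgggcggaagcttatcca
Rpl3l, chr17:24727806-24727835, plus strand: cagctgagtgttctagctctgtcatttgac

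Of the 64 members with an entry in the RefSeq promoter table, 43 (67.2%) held such a run on the gene's strand in this window, against 41.5% of all 27025 genes in the table. On the opposite strand the shares were 26.6% of members and 43.6% of all genes. Runs were found in members that fell most and in members that fell least, and neither Rpl37 nor Rpl3l had one in these 30 bases. The annotated start is not a measured one, so these letters describe the window only.

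Cells were placed in classes by the genes they held. Immature neutrophils had at least 1% of their UMIs in Camp, Ngp and Ltf, genes of the specific granules. Mature neutrophils had less than that and at least 3% (1% in tumor) in S100a8 and S100a9, the abundant calcium-binding proteins of neutrophil cytosol. Monocytes had at least 2 UMIs of Ly6c2 and belonged to neither neutrophil class, and Kit-positive cells had a Kit UMI and belonged to none of the others. UMIs were summed per hashtag, tissue and class, giving 85 sums, and each hashtag within a tissue was taken as 1 mouse. The sums held 32148 to 5081816 UMIs. Since a tissue was a single library, the effects of tissue and of library cannot be told apart. In tumor the effect of the digestion cannot be told apart from them either. A total of 31 barcode sequences occurred in more than 1 library.

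Several classes were mixed, and this touches the results. Among 2072 immature and 1847 mature neutrophils of marrow, 69 (3.33%) and 31 (1.68%) had at least 0.1% of their UMIs in the azurophil granule genes Mpo, Elane, Prtn3 and Ctsg, which promyelocytes make. These few deep cells, counted with or without an assigned hashtag, carried 25.9% and 30.2% of all ribosomal protein UMIs of their class. Sums without them are given beside the affected results. In tumor, 107 of 180 cells of the mature class lay between 1% and 3% S100a8 and S100a9, and 45.6% had a UMI of the macrophage genes C1qa or C1qb, against 0.0332% in blood. Kit-positive cells of spleen had a summed level of 6 dendritic cell markers of 2591 to 11146 CPM (a gene's part of the UMIs of a sum, set to the same total in every sum), against 113 to 816 CPM in marrow, so the progenitor end of the series was read in marrow. The marrow class was mixed too, with progenitor markers at 2004 to 3608 CPM over 10 genes. Beside them stood erythroid markers at 517 to 1208 CPM over 6, platelet markers at 35.8 to 794 CPM over 3 and macrophage markers at 505 to 812 CPM over 6. It is therefore not a class of neutrophil precursors alone.

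Ribosomal protein messages had a large share of the RNA of marrow Kit-positive cells and a small share of that of neutrophils. The share of all gene UMIs was 32.9% ± 0.87 (SD, n = 8 hashtags) in marrow Kit-positive cells, with a range of 32.0% to 34.7%. In immature neutrophils of marrow it was 4.37% ± 0.72 (n = 8), and in mature ones 3.79% ± 1.17 (n = 8). The lowest of the 8 immature sums stood at 3.25% and the highest at 5.30%, so no immature sum came near any Kit-positive sum, while the mature sums, from 2.60% to 6.10%, spanned the whole immature range. Without the cells that held azurophil genes the shares were 3.75% ± 0.39 in immature and 2.71% ± 0.17 in mature neutrophils of marrow, and the 2 sets of sums no longer overlapped (lowest immature 3.25%, highest mature 3.04%). These shares are a description of the gene set and carry no test.

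Mature neutrophils outside marrow had shares of the same order, 3.82% ± 0.44 in blood and 4.01% ± 0.85 in spleen (n = 8 each). Immature neutrophils of spleen had 5.52% ± 1.29 (n = 5). Monocytes kept far more ribosomal protein RNA, 24.1% ± 0.81 in marrow, 22.6% ± 0.61 in blood and 21.1% ± 0.94 in spleen (n = 8 each). The spleen class, set by Ly6c2 alone, held B cell markers at 253 to 38370 CPM (median 9679) over 5 genes, beside monocyte markers at a median of 6022 CPM over 6, and their part in its share was not tested. Every monocyte sum of these 3 tissues, from 19.7% upward, lay above every neutrophil sum, the highest of which was 10.5% in a tumor sum.

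**Figure D1:**
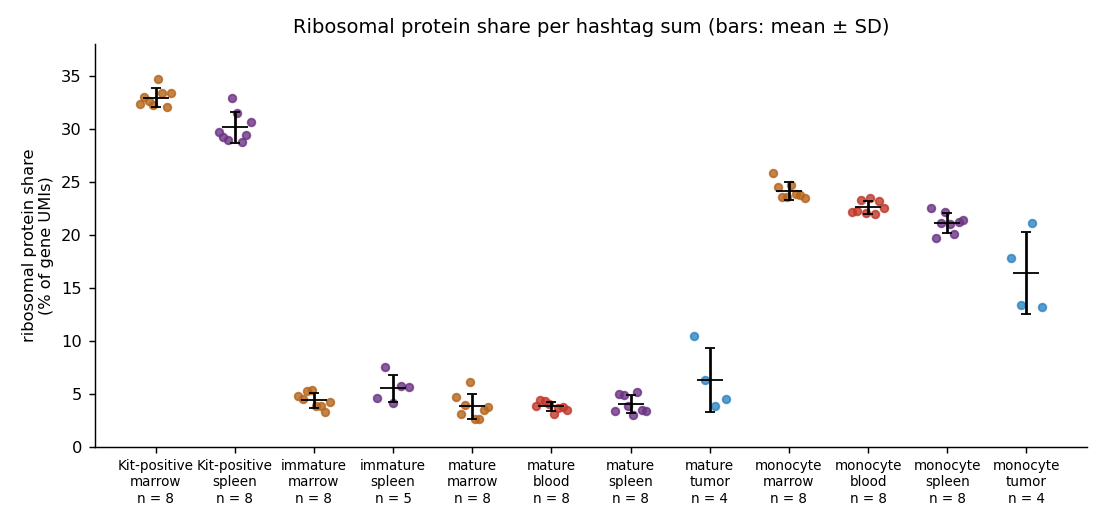
Ribosomal protein share of gene UMIs (y axis, percent) for each class and tissue (x axis); points are hashtag sums, bars the mean ± SD. Kit-positive cells lie between 28.7% and 34.7%, monocytes between 13.1% and 25.8%, and neutrophils of marrow, blood and spleen below 7.5%.

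The amount per cell moved in the same direction as the share. The median marrow Kit-positive cell held 5646.5 ribosomal protein UMIs beside 11941 UMIs of other genes. The median immature neutrophil of marrow held 267 beside 9489, and the median mature one 93 beside 3687. Between Kit-positive and immature cells the sum of the other genes thus fell far less than that of the ribosomal protein genes, and between immature and mature cells both fell. The other genes include S100a8, S100a9, Camp, Ngp and Ltf, which fill much of an immature cell's total. Without these class genes in the total, the immature marrow share was 7.41% in place of 4.37%. Most other genes also fell at this step, with a median of -1.05 on the log2 scale for all genes. Fewer messages per cell and a lower capture of a cell's RNA cannot be told apart in these counts.

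Marrow cells ordered by their granule genes placed most of the fall, in percentage points, between the Kit-positive class (median 33.1%) and the last stage that still held azurophil genes. Cells with at least 0.5% azurophil genes and under 1% specific granule genes had a median share of 27.3% (300 cells outside the Kit-positive class). This stage took cells of any other class that met these limits, the monocyte class among them. The part of each class in it was not counted, so it need not hold neutrophil precursors alone. Where specific granule genes had reached 1% beside at least 0.5% azurophil genes, the median was 17.6% (30 cells), and with azurophil genes at 0.1 to 0.5% it was 12.4% (39 cells). Cells with under 0.1% azurophil genes and at least 10% specific granule genes stood at 3.45% (569 cells). Taken as a ratio, this last step from 12.4% to 3.45% was the largest between neighbouring stages. As Camp, Ngp and Ltf then declined to 5 to 10%, 2 to 5% and 1 to 2% of UMIs, the median share went to 2.66%, 2.19% and 2.12%. Mature cells without azurophil genes had 2.40% (1816 cells).

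At 10% and more of specific granule genes the medians of the 8 hashtags ran from 3.32% to 3.56%, and at 2 to 5% from 2.02% to 2.20%, with no overlap. In mature cells they ran from 2.21% to 2.58%. The 2 transitional stages were thin, with at least 3 cells in 1 and 4 hashtags respectively. The first of them, with 30 cells, was also deep, with a median of 34027 UMIs. Medians per cell took in cells without an assigned hashtag, so doublets may be among them, and their part was not tested. These stages were chosen after the classes had been seen, and 361 marrow cells lay within 0.5% to 2% of specific granule genes, near the limit between the immature and mature classes.

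**Figure D2:**
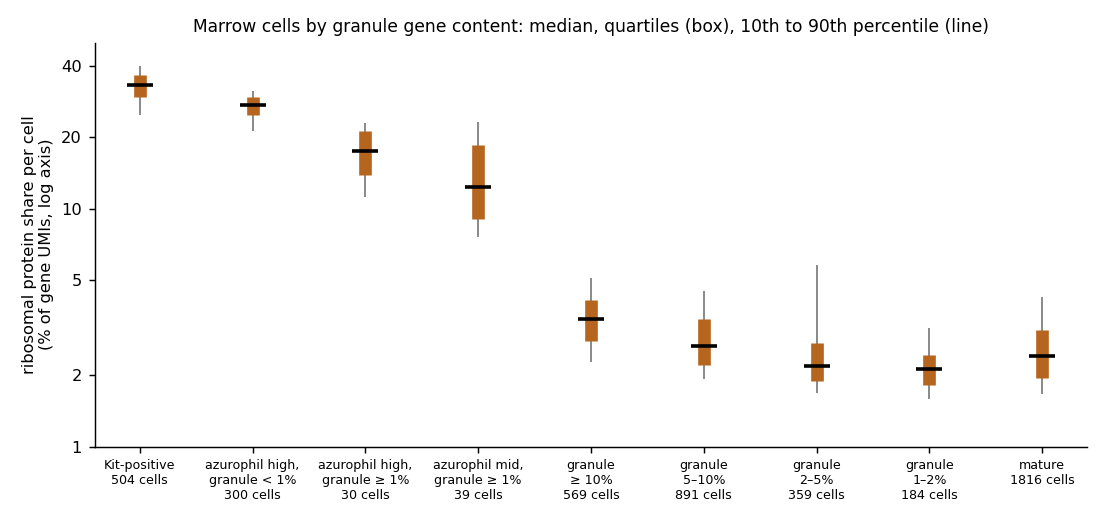
Ribosomal protein share per marrow cell (y axis, percent of gene UMIs, log axis) by granule gene content (x axis, with cell numbers); black marks are medians, boxes quartiles, lines the 10th to 90th percentile. Medians pass from 33.1% in Kit-positive cells through 17.6% and 12.4% to 3.45% once azurophil genes are under 0.1%.

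Immature neutrophils with cell cycle RNA held more ribosomal protein messages than those without. The median was 4.13% in the 553 cells with at least 2 UMIs of Mki67 and Top2a, which mark dividing cells, and 2.42% in the 1362 cells with 0. The hashtag medians, 3.77% to 4.98% and 2.22% to 2.52%, did not overlap. Cycling cells were also deeper, with a median of 18464 against 8410 UMIs, and the part of depth in this difference was not tested.

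From Kit-positive cells to immature neutrophils of marrow, nearly the entire set fell. The share of UMIs was lower in 81 of 83 members at an adjusted p under 0.05, against 61.8% of all 12871 genes tested called lower and 18.8% called higher, and the median member changed by -2.94 on the log2 scale, against -1.05 for all genes. All 32 small subunit genes and 49 of 51 large subunit genes fell, with medians of -2.96 and -2.92. Rpl39l, a testis paralog with 184 UMIs in all cells, did not pass, and Rpl3l was the single member called higher. Scaling by trimmed means raised the median of all genes by 0.96 and the members' median to -1.98, and left 81 members lower.

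Rpl14, a large subunit protein, had 2672, 3183 and 3374 CPM in the lowest, median and highest Kit-positive sum, and 110, 197 and 291 CPM in immature neutrophils. Its log2 fold change was -3.98 ± 0.22 (SE, adjusted p = 9.61e-30). Rpl12, a protein at the base of the ribosomal stalk, changed by -3.97 ± 0.27, Rps2, at the entry of the messenger channel, by -3.95 ± 0.23, and Rpl3, beside the peptidyl transferase centre, by -3.84 ± 0.23. The sums of the 2 classes were far apart for each of them: the highest immature sum of Rps2 was 528 CPM and the lowest Kit-positive sum 5183 CPM.

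At the other end stood Rps9, Rps27a, Rps27 and Rpl37. Rps9, which takes part in decoding accuracy, had 4199 to 4363 CPM in Kit-positive sums and 1216 to 1537 CPM in immature ones, a change of -1.65 ± 0.07 (adjusted p = 2.65e-36). Rps27a, whose protein is made as a fusion with ubiquitin, changed by -1.98 ± 0.09, Rps27, a zinc-finger protein of the small subunit, by -2.09 ± 0.10, and Rpl37, a zinc-finger protein of the large subunit, by -2.58 ± 0.10. The highest immature sum of each lay below its lowest Kit-positive sum, so they differed from the rest in the size of the loss and not in its direction.

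Members with a role outside or at the edge of the ribosome fell like the others at this step. Rpl5 (-3.18 ± 0.17) and Rpl11 (-2.99 ± 0.15), which with 5S RNA bind Mdm2 when assembly fails, lay near the median. So did Rps6 (-3.07 ± 0.16), the substrate of S6 kinase. The stalk proteins Rplp0, Rplp1 and Rplp2, which recruit the translation factors, changed by -3.04 ± 0.15, -3.72 ± 0.17 and -2.83 ± 0.13. Of the members with the most UMIs over all groups, Rps24 changed by -2.80 ± 0.15, Rps29 by -2.25 ± 0.11 and Rpl13 by -3.16 ± 0.17.

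From immature to mature neutrophils of marrow the members parted. On the share of UMIs, 44 of 83 members fell and 5 rose (edgeR, adjusted p under 0.05), against 24.7% and 24.5% of all genes, and the median member changed by -0.36 (all genes -0.05). Without the cells holding azurophil genes, 68 fell and 4 rose, with a median of -0.68, and 29.0% of all genes fell. Among the largest falls with all cells were those of Rpl36al (-1.05 ± 0.18, adjusted p = 9.56e-07), Rpl22l1 (-0.85 ± 0.22), Rpsa (-0.74 ± 0.23) and Rps15 (-0.65 ± 0.13). Without those cells Rpl36al changed by -2.0 ± 0.15 and Rpsa, the laminin receptor protein of the small subunit, by -1.62 ± 0.18, so the size of these falls depends on 1.68% of the mature and 3.33% of the immature cells. When immature and mature cells with Ly6c2 or Kit UMIs were left out, which removed most immature marrow cells since 95.1% of them had at least 2 Ly6c2 UMIs, only 1 immature sum was left. In that setting, which takes the lone sum to vary like the other groups, Rpl36al stood at -1.28 ± 0.55 and Rpl22l1 at -1.08 ± 0.67, too wide to read.

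Rpl37, Rps27, Rps9, Rps27a and Rpl3l made up the 5 that rose. Rpl37 had 621, 769 and 907 CPM in the lowest, median and highest immature sum and 1011, 1163 and 1452 CPM in the mature ones, which did not overlap, and its change was 0.61 ± 0.09 (adjusted p = 1.93e-08). Rps27 went from 588, 647 and 730 CPM to 764, 917 and 1095 CPM, again without overlap (0.52 ± 0.09, adjusted p = 2.08e-06). Rps9 went from 1216, 1361 and 1537 CPM to 1508, 1805 and 2004 CPM, with an overlap at the edge (0.41 ± 0.07, adjusted p = 3.21e-07). Without the azurophil cells these values were again 0.61, 0.52 and 0.41, in contrast to the members that fell. Rps27a rose least (0.23 ± 0.09, adjusted p = 0.0217), and its call was lost under 6 other settings, in 1 of which its sign turned to -0.12. With library sizes that left out the ribosomal protein and class-defining genes, the median of all genes moved by -0.34, Rps9 (0.07, adjusted p = 0.445) and Rps27 (0.17, adjusted p = 0.115) were no longer called, and Rpl37 stayed called.

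**Figure D3:**
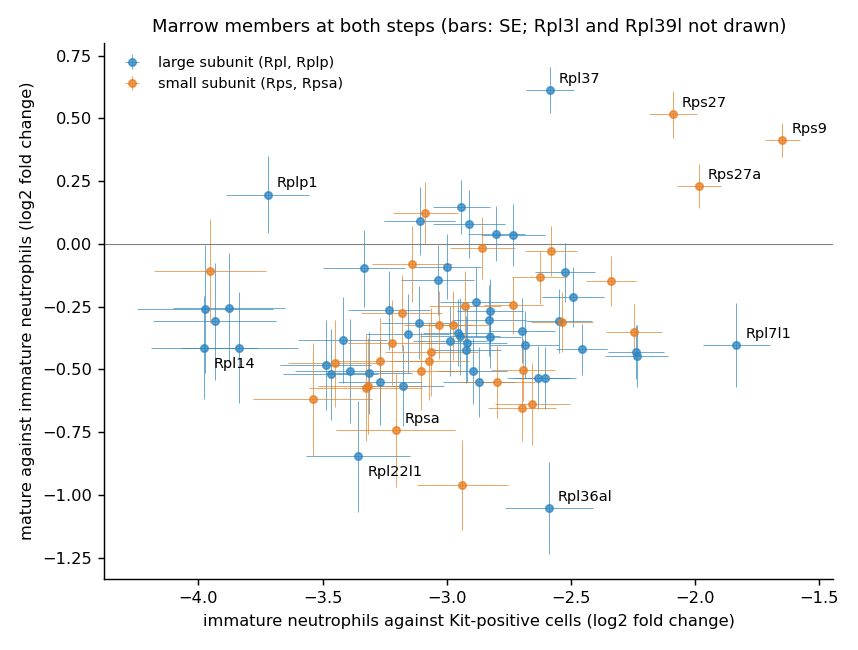
Log2 fold changes of the share of UMIs in marrow, immature against Kit-positive (x axis) and mature against immature (y axis), for 81 members with SE bars; both axes use the same immature sums. Rpl37, Rps27, Rps9 and Rps27a stand above 0 on the y axis and right of most members, with Rpl36al lowest.

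A member's place within the set was read by scaling each sum to its ribosomal protein UMIs alone. On this scale 14 members rose and 37 fell from immature to mature neutrophils of marrow (31.0% and 17.4% of all genes), with a median of -0.15. Without neutrophils that held azurophil granule genes, 17 rose and 49 fell, and the shares of all genes in that setting are not given here. Rpl37 rose by 0.88 ± 0.08 (adjusted p = 1.07e-15), Rps27 by 0.77 ± 0.09, Rps9 by 0.68 ± 0.11, Rps27a by 0.48 ± 0.08 and Rplp1 by 0.41 ± 0.08. Rpl36al fell by 0.87 on the log2 scale (adjusted p = 5.78e-10), Rpl22l1 by 0.67, Rpsa by 0.61 and Rps18 by 0.48. Without the azurophil cells these 4 stood at -1.54, -1.46, -1.16 and -0.98, and Rpl37, Rps27 and Rps9 at 1.08, 0.99 and 0.87. Under scaling by the sum without Rplp0, Rplp1 and its 5 largest members, the hashtag block and cells thinned to 1000 UMIs, Rpl37 stayed between 0.86 and 0.91 and Rps27 between 0.76 and 0.85. The composition of the set therefore differed between the 2 stages beyond the spread between hashtags.

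The same members stood apart in the spleen, which is a separate library. There 62 of 83 members fell from immature to mature neutrophils and 4 rose (26.0% and 27.9% of all genes), with a median of -0.75 (all genes 0.03). Rps27 rose by 0.98 ± 0.11, Rps9 by 0.84 ± 0.08 (adjusted p = 1.56e-15) and Rpl37 by 0.84 ± 0.11, and the fourth was Rpl3l. Rps27a did not pass (0.10 ± 0.10, adjusted p = 0.429). Rpl22l1 and Rpsa changed by -2.21 ± 0.26 and -2.21 ± 0.25, and Rpl36al by -1.89 ± 0.21. The immature spleen group held 5 sums of 25 to 44 cells, and leaving out each in turn gave 50 to 63 members lower and 4 to 6 higher. The step itself differed between spleen and marrow in 2 members called higher and 18 called lower in spleen (7.76% and 6.15% of all genes). Without the azurophil cells 9 were higher and 0 lower (6.92% and 3.47% of all genes), and without spleen hashtag 3 there were 9 lower.

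The levels of Rps9 and Rpl3 are examples of a member that rose and of one that did not. Rps9 had medians of 4242 CPM in marrow Kit-positive cells, 1361 in immature and 1805 in mature neutrophils of marrow, 2688 in mature neutrophils of blood and 2670 in those of spleen, so mature cells of blood and spleen lay above every mature marrow sum (highest 2004 CPM). Rpl3 had medians of 3169, 209, 138, 53.4 and 72.0 CPM in the same order. In blood its 8 sums ran from 41.4 to 79.9 CPM, and the mature marrow sums, from 60.9 to 389 CPM, overlapped them, and without the azurophil cells the difference between blood and marrow was not called (-0.29, adjusted p = 0.229). Among the neutrophil groups Rps9 had its highest median in blood and Rpl3 its lowest.

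**Figure D4:**
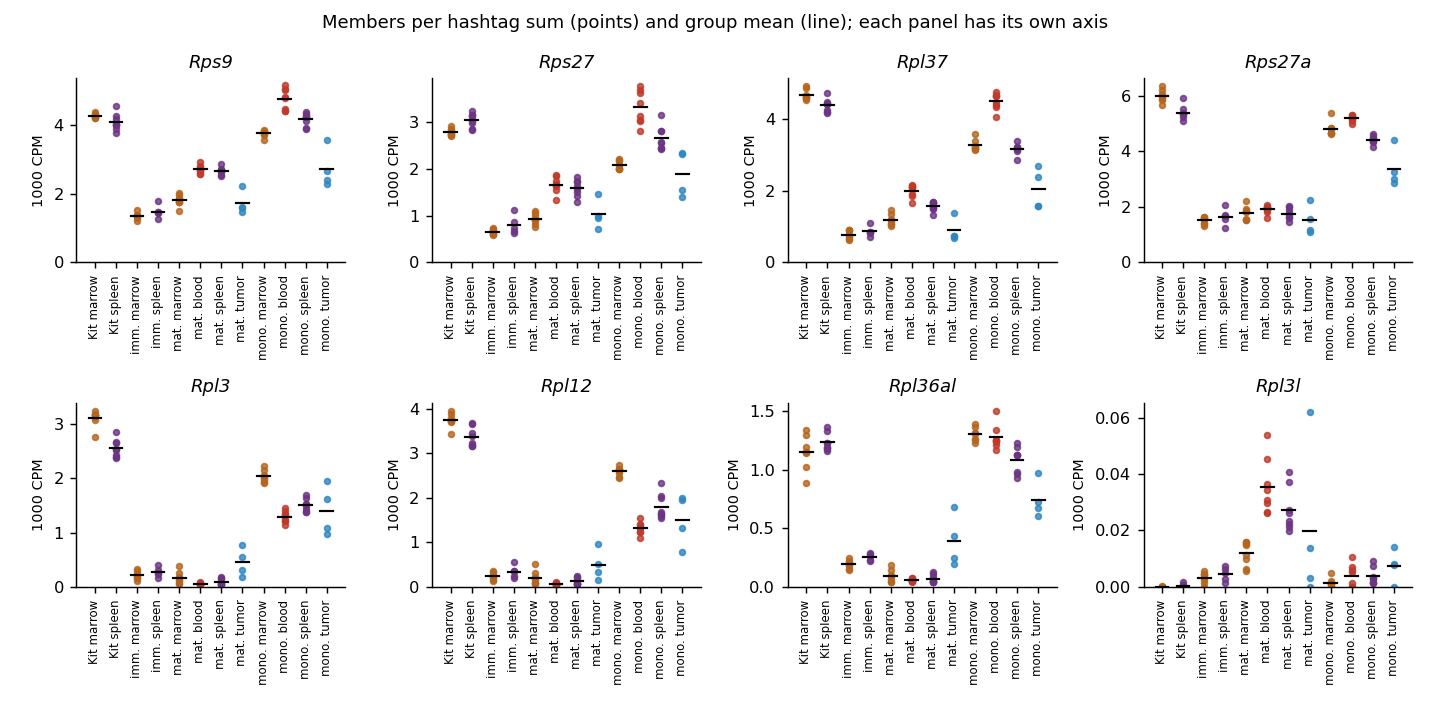
Levels (y axes, in units of 1000 CPM, each panel on its own scale from 0) of 8 members in every hashtag sum (points) with group means (lines), by class and tissue (x axes). Rps9, Rps27 and Rpl37 are higher in mature neutrophils of blood than in immature neutrophils of marrow, and Rpl3, Rpl12 and Rpl36al are lower.

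Rps27l, a p53-responsive paralog of Rps27, fell from immature to mature cells of marrow (-0.64 ± 0.16, adjusted p = 0.000582) while Rps27 rose. Rpl22l1 (-0.85 ± 0.22) passed and Rpl22 (-0.38 ± 0.17, adjusted p = 0.0551) did not. Rpl36al (-1.05 ± 0.18) passed and Rpl36a (-0.25 ± 0.22, adjusted p = 0.35) did not. Without the azurophil cells both members of these 2 pairs fell, Rpl22 by 0.81 and Rpl36a by 0.94 on the log2 scale, beside -1.91 for Rpl22l1 and -2.0 for Rpl36al. Rpl7 changed by -0.35 ± 0.13 and Rpl7l1 by -0.40 ± 0.17, although from Kit-positive to immature cells Rpl7l1, which acts in ribosome assembly, changed by -1.83 ± 0.13 and Rpl7 by -2.70 ± 0.13. Rpl10 (-0.23 ± 0.14, adjusted p = 0.166) and Rpl39 (-0.10 ± 0.15, adjusted p = 0.634) did not pass, but both did without the azurophil cells (-0.60, adjusted p = 1.75e-05, and -0.46, adjusted p = 0.00204). Rps4x fell (-0.47 ± 0.17, adjusted p = 0.0179), though not under stricter granule limits (-0.30, adjusted p = 0.147). The differences within a pair were not tested. Ribosomal protein genes have many near-identical pseudogene copies, so the counting may have split or lost reads of any member.

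Rpl3l, whose protein replaces Rpl3 in skeletal and heart muscle, was rare and rose from Kit-positive to immature cells, where Rpl3 fell. At the later steps a fall of Rpl3 was less certain. From immature to mature cells of marrow Rpl3 ran from -1.20 to 0.66 over the settings. From marrow to blood its fall was not called without the azurophil cells (-0.29, adjusted p = 0.229). Rpl3l had 1 UMI in the marrow Kit-positive sums and 74 in the immature ones, a ratio of 35.7 per total UMI with a 95% counting interval of 6.21 to 1428. In mature neutrophils its 8 sums had 5.52, 13.2 and 15.9 CPM (lowest, median, highest) in marrow and 26.3, 32.6 and 53.9 CPM in blood, without overlap. It rose by 1.68 ± 0.32 from immature to mature cells of marrow (adjusted p = 7.61e-06) and by 1.53 ± 0.26 from marrow to blood. With cells thinned to 1000 UMIs the first of these was 0.36 (adjusted p = 0.647). Rpl3l lies on chromosome 17 from 24727826 to 24736143 on the plus strand, and the next gene on that strand, Msrb1, a methionine sulfoxide reductase, runs from 24736593 to 24742778. Msrb1 changed by 3.63 ± 0.14 from Kit-positive to immature and by 1.69 ± 0.12 from immature to mature neutrophils of marrow. Whether UMIs counted for Rpl3l come from RNA of its neighbour was not tested.

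Against monocytes, mature neutrophils had less RNA of almost every member. In blood 81 of 83 members were lower and 1 higher (50.6% and 26.2% of all genes), with a median of -2.81 (all genes -0.64). In marrow 81 were lower and 1 higher (58.1% and 22.2% of all genes), with a median of -2.88 (all genes -1.16). Blood had its largest differences in Rpl10a (-4.76 ± 0.26), Rpsa (-4.54 ± 0.26), Rpl36al (-4.52 ± 0.19) and Rpl3 (-4.48 ± 0.25). Rpl10a had 44.2, 59.6 and 88.5 CPM (lowest, median, highest) in blood neutrophils and 1556, 1713 and 1868 CPM in blood monocytes. Rps9 differed by -0.81 ± 0.07, Rps27 by -0.99 ± 0.09, Rpl37 by -1.17 ± 0.09 and Rps27a by -1.44 ± 0.09 in blood. For Rps9 the sums were 2563, 2688 and 2920 CPM in neutrophils and 4386, 4794 and 5150 CPM in monocytes, so even this member did not overlap between the 2 cell types.

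Relative to the ribosomal protein sum, 20 members were higher and 50 lower in blood neutrophils than in blood monocytes (66.4% and 12.2% of all genes). Rps9 was higher by 1.77 ± 0.11, Rps27 by 1.57 ± 0.09, Rpl37 by 1.40 ± 0.08 and Rps27a by 1.13 ± 0.08, and Rpl10a changed by -2.21 ± 0.15, Rpsa by -1.99 ± 0.14, Rpl36al by -1.97 ± 0.11 and Rpl3 by -1.94 ± 0.13. The marrow pair gave values on the share scale of -1.05 ± 0.07 for Rps9, -1.16 ± 0.09 for Rps27, -1.44 ± 0.09 for Rps27a and -1.46 ± 0.09 for Rpl37, beside -3.82 ± 0.19 for Rpl36al and -3.70 ± 0.28 for Rpl12. The marrow monocyte class held progenitor markers at 6773 to 12028 CPM summed over 10 genes, against 646 to 802 CPM in blood and beside monocyte markers at 5357 to 6876 CPM over 6 genes. Of its 991 cells 573 had under 0.1% azurophil genes, and their median share was 19.5%, against 21.5% in the class. The part of these cells in the fold changes was not tested.

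**Figure D5:**
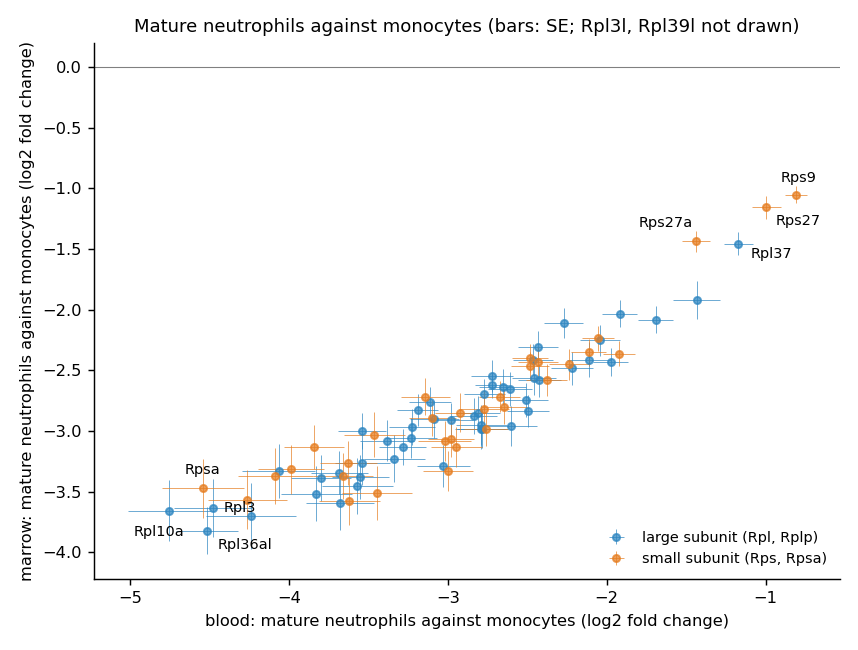
Log2 fold changes of the share of UMIs, mature neutrophils against monocytes, in blood (x axis) and marrow (y axis) for 81 members with SE bars. All members lie below 0 on both axes, Rps9, Rps27, Rpl37 and Rps27a nearest to 0.

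Between mature neutrophils of marrow and blood the direction for the set depended on a few cells. With all cells, 35 members were lower and 10 higher in blood (15.7% and 23.7% of all genes), with a median of -0.19. With the hashtag as a block 40 were lower and 21 higher (14.4% and 25.3% of all genes). Without the azurophil cells 48 were higher and 1 lower (25.7% and 8.89% of all genes), with a median of 0.38 (all genes 0.24). With each cell thinned to 1000 UMIs 31 were higher and 9 lower (21.7% and 8.02% of all genes), and the median of 0.16 lay below that of all genes (0.20). Per cell, the median share was 3.46% in blood and 2.42% in marrow. Rps27 (0.83 ± 0.09), Rpl41 (0.82 ± 0.11), Rpl37 (0.74 ± 0.09) and Rps9 (0.58 ± 0.07) were higher in blood with all cells. Rpl12 (-1.51 ± 0.27), Rpl3 (-1.50 ± 0.23) and Rpl10a (-1.46 ± 0.24) were lower, and without the azurophil cells they stood at -0.15, -0.29 and -0.06 and were not called.

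Monocytes of blood and marrow differed in 37 members, 27 lower and 10 higher in blood (30.7% and 20.5% of all genes). The members called lower were thus near the rate of all genes. With the hashtag block 48 were lower and 22 higher (32.9% and 21.4% of all genes). Rps27 (0.67 ± 0.09) and Rps29 (0.63 ± 0.11) were higher in blood monocytes, and Rpl14 (-0.98 ± 0.19) and Rpl12 (-0.97 ± 0.24) lower. The difference between the blood-to-marrow contrast of neutrophils and that of monocytes was itself called in 3 members higher and 6 lower (17.0% and 8.45% of all genes). With azurophil cells left out of the neutrophil classes alone it was called in 56 higher and 0 lower (23.4% and 7.96% of all genes). The direction of that difference changed with the neutrophils left out. The monocyte classes were not filtered, and 573 of the 991 marrow monocytes had under 0.1% azurophil genes. The difference with both cell types filtered was not tested.

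Mature neutrophils of spleen and blood were close. Of the 83 members 16 were higher and 3 lower in spleen (6.00% and 3.76% of all genes), with a median of 0.18 (all genes 0.11). With the hashtag block 46 were higher and 12 lower (14.1% and 6.73% of all genes). Rpl12 (0.82 ± 0.26), Rpl3 (0.76 ± 0.23) and Rps19 (0.70 ± 0.19), the gene mutated most often in Diamond-Blackfan anemia, were higher, and Rpl37 was lower (-0.34 ± 0.09, adjusted p = 0.00799). These 3 calls were not stable. Without mature cells holding Csf1r, C1qa, C1qb or Ly6c2 none was called (Rpl12 0.49, Rpl3 0.30, Rps19 0.38). Rpl12 and Rpl3 also lost theirs under trimmed-mean scaling and with cells of 1 class rule (0.37 and 0.32), Rpl3 with thinned cells (0.31) and Rpl12 without the azurophil cells (0.57, adjusted p = 0.0591).

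In tumor cells of the mature class most members were higher than in blood neutrophils, and a stricter class limit removed most of the calls. The shares of the 4 hashtag sums were 10.5%, 6.31%, 4.54% and 3.79%, from 5 to 23 cells each, since 68 of the 180 cells had an assigned hashtag. The lowest lay within the blood range of 3.11% to 4.42%. Of 83 members 68 were higher and 5 lower (27.8% and 15.0% of all genes), with a median of 1.14 (all genes 0.25). Rpl3 was higher by 3.08 ± 0.29, Rpl12 by 2.91 ± 0.33 and Rpl10a by 2.80 ± 0.31. Rpl3 had 187, 310, 552 and 780 CPM in the 4 tumor sums, all above the highest blood sum of 79.9 CPM.

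With the 3% limit that the other tissues had, 2 tumor sums were left, 7 members were higher and 15 lower (7.80% and 8.49% of all genes), with a median of 0.10 (all genes -0.83), and the share was 3.21%. The members called higher were thus near the rate of all genes. When cells with a UMI of Csf1r, C1qa, C1qb or Ly6c2 were left out of every mature class, 1 tumor sum was left, with 1 member higher and 8 lower (2.79% and 1.42% of all genes). When cells with C1qa or C1qb alone were left out of the tumor class, 63 were higher and 5 lower in 3 sums (16.0% and 9.37% of all genes). Macrophage markers summed to 1153 to 3821 CPM over 6 genes in the tumor sums and to 156 to 415 CPM in blood. Whether these cells or the tumor neutrophils carry the higher levels was not tested. Rpl37 (-1.16 ± 0.13), Rps9 (-0.66 ± 0.09), Rps27 (-0.66 ± 0.12) and Rps27a (-0.32 ± 0.11, adjusted p = 0.0166) were lower in tumor, and Rpl37, Rps9 and Rps27 kept their sign and their call under every alternative that gave a value. Rps27a was not called without tumor hashtag 6 (-0.17, adjusted p = 0.263) or hashtag 4 (-0.24, adjusted p = 0.104).

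Fau and Rack1 are left out by the name rule, but their products sit in the ribosome. Fau, made as a fusion of a ubiquitin-like protein with a small subunit protein, changed by only -0.99 ± 0.07 from Kit-positive to immature cells and rose by 0.64 ± 0.07 from immature to mature cells of marrow (adjusted p = 3.38e-13). Rack1, a scaffold on the small subunit, changed by -3.47 ± 0.18 and -0.39 ± 0.17 (adjusted p = 0.0485). The second call was lost with no gene filter (adjusted p = 0.0688), without tumor cells holding C1qa or C1qb (adjusted p = 0.0546) and under stricter granule limits (-0.14, adjusted p = 0.528).

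Other parts of the translation machinery fell with the members between Kit-positive and immature cells. Of all genes 61.8% were called lower and 18.8% higher at this step, with a median of -1.05. All 6 elongation factors fell (median -3.44), among them Eef1a1 (-3.47 ± 0.16) and Eef2 (-3.12 ± 0.12). All 27 initiation factors fell (median -2.18), although Eif1, which selects the start codon, changed by only -0.34 ± 0.07 and by 0.63 under trimmed-mean scaling. Of 13 other messages known to start with a TOP element 12 fell and 1 rose (median -2.96), with Tpt1 at -1.69 ± 0.08, Pabpc1 at -2.24 ± 0.09 and Npm1 at -4.66 ± 0.27. All 37 ribosome biogenesis factors fell, with a median of -4.09 and Ncl at -4.02 ± 0.19. All 14 measured RNA polymerase I genes of 17 fell (median -2.81), as did 77 of 78 mitochondrial ribosomal protein genes (median -2.10).

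From immature to mature neutrophils of marrow fewer genes of these lists were called, beside 24.7% of all genes that fell and 24.5% that rose. Of the elongation factors 1 fell and none rose (median -0.02), and Eef1a1 (-0.11 ± 0.15, adjusted p = 0.568) and Eef2 (0.08 ± 0.13, adjusted p = 0.665) did not pass. The elongation factor that fell was Eif5a (-0.76 ± 0.14). Of the initiation factors 20 fell and 3 rose (median -0.66), with Eif3c at -0.89 ± 0.12 and Eif1 at 0.68 ± 0.07. Mitochondrial ribosomal protein genes fell in 54 of 78 and rose in 3 (median -0.88), and Mrpl33 rose by 1.14 ± 0.08. Of the other TOP messages 7 fell and none rose (median -0.31), including Nap1l1 (-1.10 ± 0.19), Naca (-0.65 ± 0.14) and Btf3 (-0.41 ± 0.10). Without cells holding Ly6c2 or Kit UMIs, where a single immature sum was left, Eif5a (0.47), Nap1l1 (0.27) and Btf3 (0.43) had the opposite sign and were not called. Biogenesis factors fell in 8 of 37 and rose in none (median -0.36), with Ebna1bp2 at -1.29 ± 0.19, and RNA polymerase I genes fell in 5 of 14 and rose in 3. The falls among biogenesis factors were thus no more frequent than among all genes.

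Regulators of TOP messages and of resting ribosomes were called lower and higher about as often as all genes at the second step. From Kit-positive to immature cells 22 of 26 measured genes fell and 3 rose (61.8% and 18.8% of all genes). From immature to mature cells of marrow 7 fell and 8 rose (24.7% and 24.5% of all genes). Myc, which drives ribosome production, changed by -5.21 ± 0.25 at the first step and did not pass at the second (-0.63 ± 0.51, adjusted p = 0.322). Mxd1, a Myc antagonist that rises in maturing granulocytes, rose by 4.89 ± 0.28 and then by 1.62 ± 0.20. Eif4ebp1, the repressor of cap-dependent translation controlled by mTOR, changed by -0.93 ± 0.12 and then rose by 1.18 ± 0.12 (adjusted p = 5.12e-14). Larp1, which binds TOP messages, changed by -2.58 ± 0.16 and -1.20 ± 0.23, and Sesn2, a stress-induced inhibitor of mTORC1, rose by 1.91 ± 0.30 and 2.75 ± 0.17.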

How the data were processed

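The sources were 1 table of cells from 4 RNA libraries with antibody tags. Its values are raw UMI counts that the authors deposited without normalization; per the file headers and the submitters' processing notes they come from Cell Ranger 7.0.1 with mm10. The number that ends a barcode was matched to the library number in the titles (1 blood, 2 bone marrow, 3 spleen, 4 tumor), a tie no source states outright. All 20012 cells were kept, and 17960 (89.7%) had a top hashtag with at least 20 counts and 3 times the next. Cells with no such hashtag, doublets of 2 hashtags among them, entered no sum. Doublets within a hashtag stayed in.

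UMIs were summed per hashtag, tissue and class where at least 20 cells (5 in tumor) were present. Genes with at least 100 UMIs over the 85 sums (12871) were tested with edgeR 4.0.16 (limma 3.58.1, R 4.3.3): quasi-likelihood test, 1 fit over all groups, total gene UMIs as library sizes, Benjamini-Hochberg adjustment over all genes, called at an adjusted p under 0.05. Every adjusted p in the text is from that test unless another tool is named. A second fit used the members' summed UMIs as library sizes. Values are log2 fold changes ± SE (the fold change over the root of the test's F), and levels are CPM computed here. The fit was tested on simulated data with the sums' depths, but with 1 pooled profile for all groups and 1 spread for all genes. The real spread between sums was thus not simulated. For marrow mature against immature neutrophils it recovered 49 of 67 genes changed 2-fold (73.1%) and 11 of 67 changed 1.5-fold (16.4%), among 12800 genes. For tumor against blood it recovered 12 of 67 (17.9%) and 2 of 66 (3.0%), among 12796 genes. False calls made up 7.75% and 1.82% of all calls.

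The members and all gene lists were chosen with earlier results of these data known. Genes were named by rule: the 5 largest and 5 smallest changes between marrow mature and immature neutrophils on both scales (mean of at least 10 CPM), the 5 members with the most UMIs, paralog pairs, and up to 4 genes per list with the smallest adjusted p, beside fixed translation genes; a few genes this rule names are not reported here. Members named for their role or for another comparison were picked after their values were seen. Nothing says that hashtags are separate animals beyond the labels' wording, so p-values measure the spread between hashtags. Same-numbered sums of blood and marrow, and of blood and spleen, deviated together in mature neutrophils (correlations of 0.37 to 0.63 and 0.49 to 0.78 over 8 pairs), as did monocytes of blood and marrow (0.24 to 0.50). The main fit took no account of this pairing, and the hashtag was used as a block in an alternative fit only. Within a tissue the number is the same hashtag. Alternatives covered scaling, DESeq2 1.42.0, the gene filter, the block, class limits, hashtag limits, low-quality cells, thinning to 1000 UMIs and leaving out sums. The interval of the Rpl3l ratio is exact and covers counting error only, as PCR and cells of 1 sum are not independent.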

Additional observations from a re-analysis of the deposited data

Results flagged for a closer look

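The blood against marrow difference was set against itself in neutrophils and monocytes by an interaction term in the edgeR fit. It differed between the 2 cell types in 3 members called higher and 6 called lower in neutrophils, against 17.0% and 8.45% of all genes. The mature against immature difference was set against itself in spleen and marrow in the same way, and 2 members were called higher in spleen and 18 lower (7.76% and 6.15% of all genes), with a median of -0.32. With the hashtag block the second count was 2 higher and 40 lower (7.95% and 6.45% of all genes). Without spleen hashtag 3 in the immature class it was 2 and 9, and without azurophil cells 9 and 0 (6.92% and 3.47% of all genes). Of the 12 groups, all with 4 to 8 sums, none had a hashtag whose ribosomal protein share stood apart from the others by Dixon's test at 95%.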

How the results depend on the processing

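The falls from Kit-positive to immature cells and from monocytes to mature neutrophils kept their direction and 80 to 82 called members under every alternative run, and counts in the 2 fits relative to the ribosomal protein sum stayed within 1.5 times. Of 156 values of single genes named here, 98 kept throughout their sign and call or, where not called in the main fit, stayed uncalled. Among those called in the main fit, 12 turned their sign in at least 1 setting. Sign changes of uncalled values were not counted. Myc, for example, ran from -1.74 to 2.03 in mature against immature cells of marrow. Where no share of all genes is given here or above, a count of members cannot be told apart from a shift of all genes. Counts of members called that moved by more than 1.5 times were these. DESeq2 gave marrow mature against immature 68 lower, spleen against blood mature 6 lower, the neutrophil less monocyte difference 1 higher and 20 lower and the spleen less marrow difference 1 higher and 49 lower. Trimmed-mean scaling gave spleen against blood 10 higher, tumor against blood 45 higher and 12 lower, and the spleen less marrow difference 11 lower. Library sizes without members and class genes gave marrow mature against immature 2 higher and 71 lower, blood against marrow mature 6 higher, the neutrophil less monocyte difference 0 higher and 13 lower, and the spleen less marrow difference 0 higher and 40 lower.

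With the hashtag as a block, which pairs same-numbered sums, blood against marrow mature had 21 higher, spleen against blood 46 higher and 12 lower, monocytes of blood against marrow 22 higher and 48 lower, the neutrophil less monocyte difference 5 higher and 10 lower, and the spleen less marrow difference 40 lower, and no other count moved by that much. Without azurophil genes in the neutrophil classes, marrow mature against immature had 68 lower and spleen mature against immature 8 higher. Blood against marrow mature had 48 higher and 1 lower, and spleen against blood 5 lower. The neutrophil less monocyte difference, with monocytes not filtered, had 56 higher and 0 lower. The spleen less marrow difference had 9 higher and 0 lower. This setting, and that without C1q cells, were chosen after seeing the data. Thinning to 1000 UMIs gave immature against Kit-positive (1 Kit-positive sum) 0 higher, blood against marrow mature 31 higher and 9 lower, spleen against blood 10 higher and 7 lower, tumor against blood 33 higher, blood against marrow monocytes 6 higher and 12 lower, and the 2 differences 12 higher and 0 lower and 1 higher and 4 lower. Cells that met 1 class rule (1 immature marrow sum) gave marrow mature against immature 2 lower, immature against Kit-positive 0 higher, blood against marrow mature 38 higher and 1 lower, spleen against blood 9 lower, tumor against blood 27 higher and 15 lower, blood against marrow monocytes 20 higher, and the neutrophil less monocyte difference 37 higher and 0 lower. Mature cells without Csf1r, C1qa, C1qb or Ly6c2 gave blood against marrow 6 higher, spleen against blood 5 higher and 5 lower, tumor (1 sum) against blood 1 higher and 8 lower, and the 2 differences 0 higher and 10 lower and 0 higher and 33 lower. Stricter granule limits gave marrow mature against immature 10 higher and 19 lower, spleen mature against immature 9 higher, and the 2 differences 1 higher and 10 lower. A 3% limit in tumor gave 7 higher and 15 lower, a hashtag ratio of 5 gave the neutrophil less monocyte difference 5 higher, and no gene filter gave spleen against blood 1 lower.

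Leaving out 1 immature spleen sum at a time gave spleen mature against immature 4 to 6 higher and 50 to 63 lower, and the spleen less marrow difference 1 to 2 higher and 9 to 25 lower (9 without hashtag 3). Leaving out 1 tumor sum at a time gave 55 to 71 higher and 4 to 5 lower. Shares then ran from 5.03% to 5.86% in immature spleen cells, 4.88% to 7.11% in the tumor mature class and 14.8% to 17.5% in tumor monocytes. Other shares moved by more than 1 SD as follows. Thinned, they were 28.9% and 22.4% in Kit-positive cells of marrow and spleen (1 sum each), 3.38% in immature marrow cells, and 20.9% and 21.9% in monocytes of blood and marrow. As means over cells they were 27.9% in Kit-positive spleen cells, 3.39% in immature marrow cells, and 22.0% and 22.1% in monocytes of blood and marrow. Without class genes in the total they were 7.41% and 9.02% in immature cells of marrow and spleen and 4.55% and 5.16% in mature cells of blood and marrow. With 1 class rule immature marrow cells had 2.43% (1 sum) and marrow monocytes 22.3%, and the tumor mature class had 3.21% with the 3% limit and 2.23% without monocyte genes (1 sum). A lone sum is taken to vary like the other groups.

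Among values called in the main fit, signs turned in immature against Kit-positive cells for Eif4ebp1 (0.035 with trimmed-mean scaling) and Eif1 (0.63 with that and 0.045 with DESeq2). In mature against immature cells signs turned for Rps27a (-0.12) with library sizes that left out members. With 1 class rule, where 1 immature marrow sum was left, they turned there for Rack1 (0.031), Tpt1 (0.40), Nap1l1 (0.27), Btf3 (0.43), Eif5a (0.47), Rpl5 (0.14), Rpl11 (0.17) and Rps6 (0.16). Rpl3 in tumor turned to -8.48 without monocyte genes, in 1 shallow sum. The causes were not tested. Tumor sums of 5 to 23 cells limit what can be seen there.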
